A study of Mus musculus with 8 samples.

Results

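The genes described here are 33 transcripts of glucose breakdown and of the cellular response to low oxygen, read in regulatory T (Treg) cells of the mouse large intestine. They were chosen by name, as the rows of the RNA-seq count table whose symbol matched a list of 19 glycolysis and 14 hypoxia response genes. All 33 were found among 19191 gene rows, and all 33 passed the filter on low counts, which kept 14274 genes.

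Treg cells are Foxp3-expressing CD4 T cells that restrain immune responses. The cells were sorted from the large intestinal lamina propria of C57BL/6 mice, and total RNA was sequenced after removal of ribosomal RNA. All animals carried Foxp3Yfp-Cre, a Cre recombinase with a fluorescent tag expressed from the Foxp3 locus, which acts in Treg cells. The group called KO had the genotype Ahrf/- Foxp3Yfp-Cre (2 libraries) and the group called WT had Ahrf/+ Foxp3Yfp-Cre (2 libraries), where f is a floxed allele of Ahr. The WT cells therefore kept an intact allele beside the floxed allele that Cre can delete, and the allele written as -, read here as null, was carried by all cells of KO mice. Effects inside Treg cells and effects of the surrounding tissue cannot be told apart. Ages, sex and whether libraries came from single or pooled animals are not stated in the labels. P-values measure the spread between these libraries, which may be technical. In bulk samples fewer cells of a type and less RNA per cell cannot be told apart.

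Glycolysis splits glucose into pyruvate through a chain of cytosolic enzymes, and activated T cells raise it when they grow. Low oxygen stabilises the factor HIF-1 alpha, which pairs with Arnt and switches on glucose transporters, glycolytic enzymes and genes that spare mitochondria. Ahr, the aryl hydrocarbon receptor, is a ligand-activated factor that pairs with the same Arnt protein. The core DNA letters bound by the HIF and Ahr complexes overlap, and the oxygen tension of the gut falls towards the lumen. The comparison of KO with WT asks how transcripts of these pathways stood in gut Treg cells without a working Ahr gene.

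Total gene counts were 26862922 and 62402450 in WT replicates 1 and 2, and 30993483 and 53438828 in KO replicates 1 and 2. Both replicate 2 libraries were thus the deeper ones, and the part of depth in differences between replicates was not tested. Levels are given as CPM, counts per 1000000 counts of the library after TMM scaling, and lengths of transcripts were not used, so levels of different genes are not set against each other. Values run from replicate 1 to replicate 2 within each genotype. Ratios within a replicate are log2 ratios of the CPM of KO over WT. Ahrr, the repressor gene that Ahr induces, stood at 7.30 and 6.55 CPM in WT and at 0.391 and 0.265 CPM in KO. Counts over the whole Ahr gene do not show the deleted part and stood at 581, 539, 536 and 518 CPM. The Treg marker Foxp3 was present at 250 to 280 CPM in the 4 libraries, and all 6 Treg and all 6 T cell markers on the lists were detected in each library. Their summed levels were 6592 to 6962 CPM (Treg) and 2660 to 2822 CPM (T cell) in WT, and 7162 to 7588 CPM and 2905 to 2976 CPM in KO. Most of the higher sums in KO came from Ctla4 and Cd4, named after their values were seen. Ctla4 stood at 3196 and 3045 CPM in WT and at 3773 and 3620 CPM in KO. Cd4 stood at 1043 and 1090 CPM in WT and at 1234 and 1175 CPM in KO. On each list 4 markers had a fitted value above 0 and 2 below, so the sums do not describe the other markers.

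The promoter windows of 5 members follow, because these had the lowest unadjusted p-values in the comparison of genotypes. Each window runs from 250 bases before to 50 bases after the transcript start, in RefSeq on GRCm38.p6, printed 5′ to 3′ on the strand of the gene. Capitals mark the HIF core, ACGTG or GCGTG, on either strand. GCGTG is also the core of the Ahr site, and the E-box CACGTG holds ACGTG on both strands. Ldha has 2 windows in RefSeq, and the one with more matches is shown.
Slc2a1 (chr4:119108495-119108794, plus strand): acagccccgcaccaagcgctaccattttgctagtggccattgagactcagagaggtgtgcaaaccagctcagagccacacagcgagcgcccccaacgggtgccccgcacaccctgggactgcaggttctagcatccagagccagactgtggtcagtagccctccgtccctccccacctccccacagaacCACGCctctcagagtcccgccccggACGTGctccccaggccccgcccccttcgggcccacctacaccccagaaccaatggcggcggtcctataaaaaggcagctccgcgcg
Ldha (chr7:46845554-46845853, plus strand): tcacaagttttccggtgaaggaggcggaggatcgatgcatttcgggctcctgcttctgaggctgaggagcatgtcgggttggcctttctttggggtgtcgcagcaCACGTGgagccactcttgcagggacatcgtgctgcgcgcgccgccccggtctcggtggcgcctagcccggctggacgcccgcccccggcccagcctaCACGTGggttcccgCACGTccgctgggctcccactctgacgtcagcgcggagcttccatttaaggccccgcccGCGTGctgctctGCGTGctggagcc
Egln3 (chr12:54203825-54204124, minus strand): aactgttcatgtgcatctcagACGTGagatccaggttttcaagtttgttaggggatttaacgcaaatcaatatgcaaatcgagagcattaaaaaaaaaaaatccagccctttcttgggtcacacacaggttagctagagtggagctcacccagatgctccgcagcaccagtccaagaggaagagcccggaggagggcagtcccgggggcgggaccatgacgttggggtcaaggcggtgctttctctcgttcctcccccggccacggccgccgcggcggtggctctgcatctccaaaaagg
Ankrd37 (chr8:45999801-46000100, minus strand): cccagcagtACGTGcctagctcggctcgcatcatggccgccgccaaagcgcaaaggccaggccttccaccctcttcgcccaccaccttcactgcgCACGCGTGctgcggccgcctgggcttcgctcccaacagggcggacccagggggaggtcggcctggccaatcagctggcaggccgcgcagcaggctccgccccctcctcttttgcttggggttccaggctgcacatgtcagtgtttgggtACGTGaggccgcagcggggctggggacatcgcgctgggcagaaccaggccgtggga
Higd1a (chr9:121857747-121858046, minus strand): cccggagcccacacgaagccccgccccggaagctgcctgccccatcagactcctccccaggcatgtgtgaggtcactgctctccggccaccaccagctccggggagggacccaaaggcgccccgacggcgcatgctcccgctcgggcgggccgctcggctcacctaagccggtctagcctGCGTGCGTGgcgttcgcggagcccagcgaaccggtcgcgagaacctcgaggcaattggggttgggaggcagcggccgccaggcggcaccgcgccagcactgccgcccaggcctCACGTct
The Ldha window held 7 matches to the HIF core, 2 of them GCGTG, and 2 E-boxes, while that of Egln3 held 1 match and no GCGTG. Ankrd37 had 4 matches, Higd1a 3 and Slc2a1 2. Promoter windows were found for 30 members, Ero1l through its current symbol Ero1a, and not for Slc2a3, Bnip3l and Bhlhe40. At least 1 window with a HIF core belonged to 28 of these 30 genes (93.3%), against 46.7% of 27025 genes in the table. GCGTG was found for 21 of 30 (70%), against 35.2%, and the E-box for 4 (13.3%), against 8.09%. A gene with more windows has more places for a match, so shares by window are given too. A HIF core was in 79.5% of 44 member windows, against 43.8% of 32851 windows over all genes. By window GCGTG was in 56.8%, against 32.4%, and the E-box in 9.09%, against 7.15%. The member windows were richer in G and C, with a median GC content of 64.8% against 52.7% over all windows, and the part of base composition in these shares was not tested. Gpi1 and Tpi1 had no HIF core in their windows, which says nothing on binding elsewhere.

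None of the 33 members differed between genotypes by edgeR's quasi-likelihood test, in which each had a Benjamini-Hochberg adjusted p of 1.00. In that test 0% of 14274 genes were called. Even Ahrr was not called there, with a log2 fold change of -4.42 and an edgeR adjusted p of 0.218. DESeq2 gave Ahrr an adjusted p of 3.11e-18. A missing call by edgeR therefore does not show that the genotypes were equal. At an unadjusted p under 0.05 the count was 0 of 33 members, beside 2.85% of all tested genes. DESeq2 called 0 of 33 members (0.267% of the 17996 genes to which it gave an adjusted p), and limma-voom also called 0 of 33 (0% of genes). The authors' deposited table gave the same adjusted p of 0.889 to all 33 members, while 0.344% of its genes lay under 0.05. The comparison behind that column is not stated and was read here as KO against WT. The 95% intervals of all 33 log2 fold changes of KO over WT lay between -0.79 and 0.85, so a change by 1 on the log2 scale, up or down, was outside each gene's own interval. For 21 members the interval lay within -0.5 to 0.5.

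The direction was shared by most members although no single gene passed. The fitted value was above 0 for 29 of 33 members and below 0 for Pfkfb4, Pdk1, Aldoc and Vegfa, whereas 52% of all tested genes were above 0. Member values ran from -0.22 for Pfkfb4 to 0.29 for Egln3, with a median of 0.12, and the median over all tested genes was 0.01. Both KO libraries lay above both WT libraries for 9 members (27.3%), beside 13.5% of all tested genes. Both lay below for 2 members, Pfkfb4 and Pdk1 (6.06%), beside 13.4%. For the other 22 members the genotypes overlapped. These are descriptions of genes that may share regulation and are not independent of each other.

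**Figure D1:**
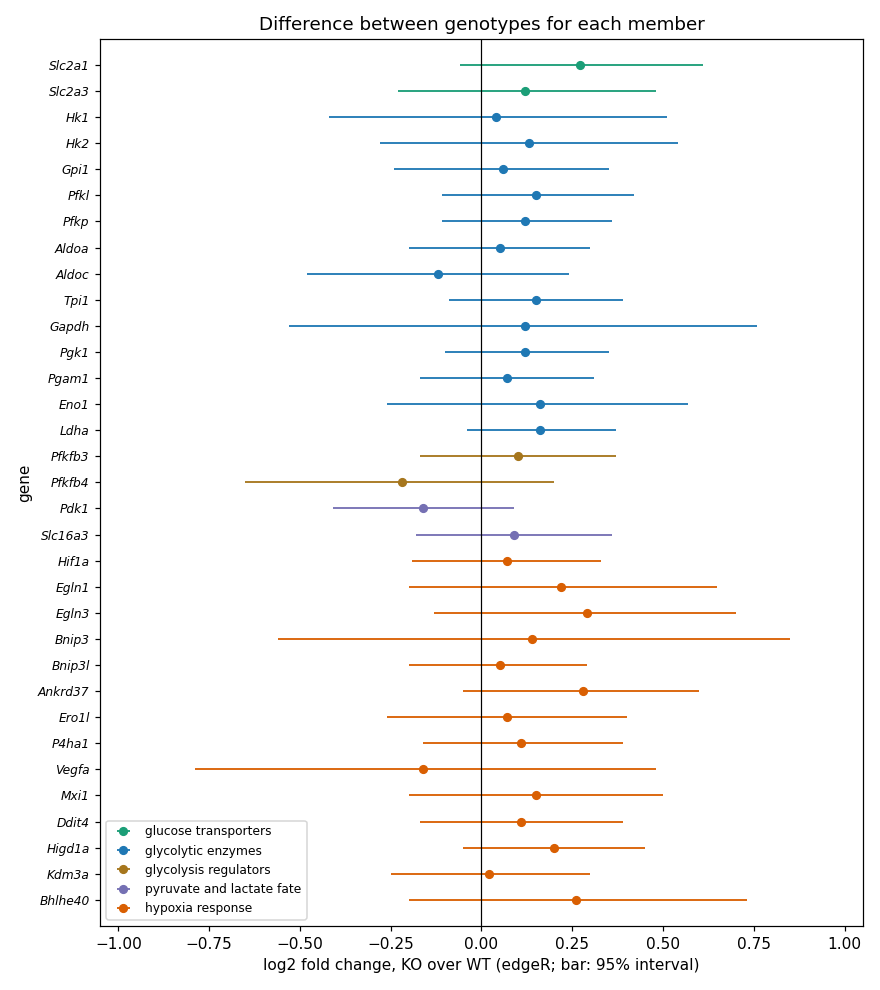
Log2 fold change of KO over WT for each of the 33 members (points) with the 95% interval of edgeR's quasi-likelihood fit (bars), n = 2 libraries per genotype, coloured by role. Every bar crosses 0, and 29 of 33 points lie to its right.

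Among the glucose transporters, Slc2a1 (chromosome 4, 118781316 to 118809935, mm9), which encodes the basal transporter GLUT1, stood at 162 and 129 CPM in WT and at 168 and 184 CPM in KO. The KO libraries were both above the WT libraries, but KO replicate 1 only just. Its log2 fold change was 0.27 ± 0.14 (SE, n = 2 per genotype, 95% interval -0.06 to 0.61), and the ratio was 0.05 in replicate 1 and 0.51 in replicate 2. The fitted value of Slc2a1 was 0.12 without WT replicate 2 and 0.45 without WT replicate 1. Slc2a3, which encodes the high-affinity transporter GLUT3, stood at 176 and 219 CPM in WT and at 198 and 233 CPM in KO. Here the replicate 2 libraries were the high ones and the genotypes overlapped, with a log2 fold change of 0.12 ± 0.14.

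Of the 13 glycolytic enzymes, 12 had a fitted value above 0, from 0.04 for Hk1 to 0.16 for Ldha, and 6 had both KO libraries above both WT libraries (Pfkl, Pfkp, Tpi1, Pgk1, Pgam1 and Ldha). This was 46.2% of the enzymes, beside 13.5% of all tested genes. Ldha (chromosome 7, 54096845 to 54110997, mm9), the lactate dehydrogenase chain that turns pyruvate into lactate, stood at 520 and 504 CPM in WT and at 571 and 576 CPM in KO. The 2 libraries of each genotype lay close together and the genotypes did not overlap. Ldha had a log2 fold change of 0.16 ± 0.08 (95% interval -0.04 to 0.37), 0.14 in replicate 1 and 0.19 in replicate 2.

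The entry step of glycolysis differed more between replicates than between genotypes. Hk1, the housekeeping hexokinase, stood at 92.6 and 123 CPM in WT and at 97.0 and 125 CPM in KO. Both replicate 2 libraries were high, and the log2 fold change was 0.04 ± 0.18. Hk2, the inducible hexokinase, stood at 75.7 and 74.7 CPM in WT and at 69.3 and 94.9 CPM in KO. KO replicate 1 was the lowest and KO replicate 2 the highest library, so that the ratio was -0.13 in replicate 1 and 0.34 in replicate 2. Gpi1, the isomerase after hexokinase, stood at 185 and 203 CPM in WT and at 184 and 219 CPM in KO, again with overlap.

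The phosphofructokinases commit the sugar to glycolysis. Pfkl stood at 143 and 150 CPM in WT and at 151 and 175 CPM in KO, and Pfkp at 252 and 256 CPM in WT and at 260 and 292 CPM in KO. In both genes KO replicate 2 stood apart on the high side while KO replicate 1 was just above WT. Pfkl had a log2 fold change of 0.15 ± 0.10 and Pfkp of 0.12 ± 0.09. The aldolases split the 6-carbon sugar. Aldoa stood at 624 and 673 CPM in WT and at 637 and 708 CPM in KO, which gave a log2 fold change of 0.05 ± 0.10 (95% interval -0.20 to 0.30). Aldoc, the isoform known from brain, was the only enzyme of the 13 with a fitted value below 0, at 19.8 and 22.1 CPM in WT and at 17.2 and 21.2 CPM in KO (-0.12 ± 0.14).

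Among enzymes of the 3-carbon phase, Tpi1, the triose isomerase, stood at 175 and 189 CPM in WT and at 192 and 212 CPM in KO (log2 fold change 0.15 ± 0.10). Pgk1, the kinase of the first ATP-yielding step, stood at 124 and 127 CPM in WT and at 132 and 142 CPM in KO (0.12 ± 0.09). Pgam1, the mutase, stood at 69.3 and 66.3 CPM in WT and at 70.6 and 71.6 CPM in KO (0.07 ± 0.10). In these 3 genes the genotypes did not overlap, and the 95% interval of each included 0. Eno1, the enolase, stood at 142 and 178 CPM in WT and at 157 and 201 CPM in KO, and both replicate 2 libraries were high. Gm5506, a near-identical enolase copy named after its values were seen, stood at 144 and 162 CPM in WT and at 157 and 180 CPM in KO. Gapdh, the dehydrogenase often taken as a constant reference, had the widest interval of the enzymes (-0.53 to 0.76). It stood at 81.4 and 54.1 CPM in WT and at 87.0 and 59.9 CPM in KO, so that both replicate 1 libraries were high and the genotypes overlapped. Gapdh, Eno1, Ldha, Pgk1, Tpi1 and Aldoa have near-identical copies or pseudogenes, and how reads shared with them were counted is not given, so their levels are uncertain.

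**Figure D2:**
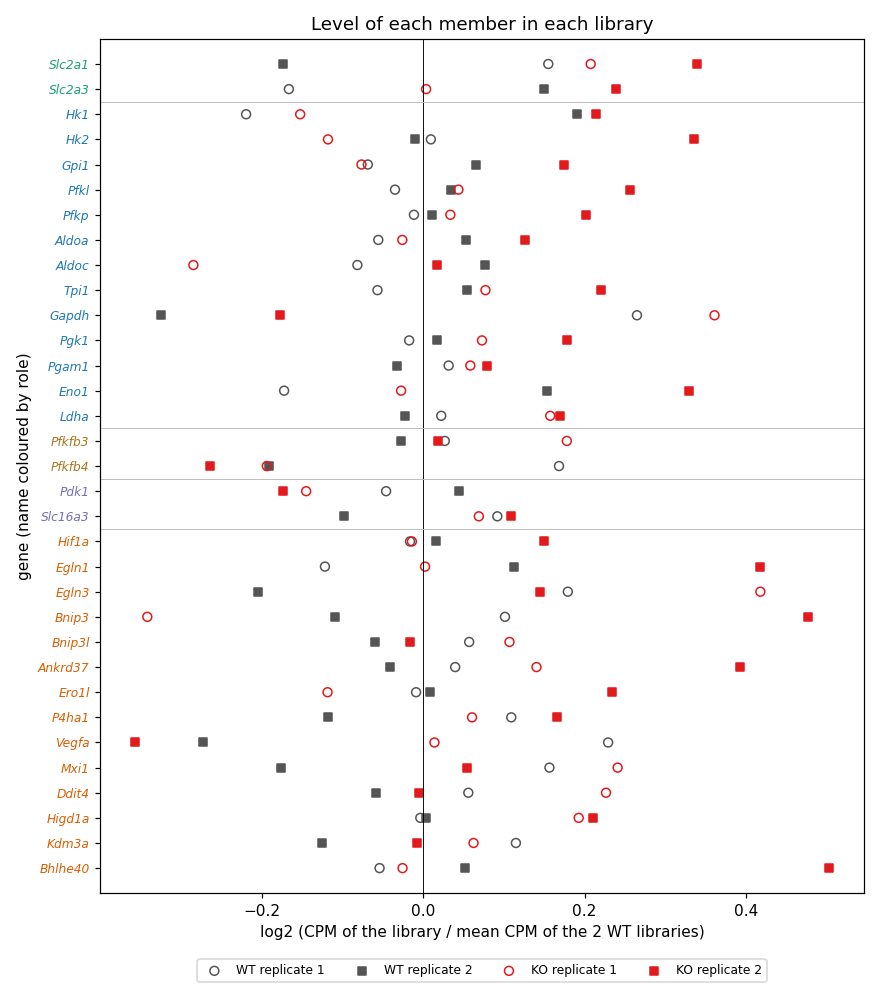
Level of each member in each of the 4 libraries, as log2 of its CPM over the mean CPM of the 2 WT libraries (open circles replicate 1, filled squares replicate 2, grey WT, red KO; gene names coloured by role). KO replicate 2 is the rightmost point for 22 of 33 genes, and Gapdh, Vegfa, Egln3 and Mxi1 have both replicate 2 points to the left of the replicate 1 point of the same genotype.

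Members that steer glycolysis or the fate of pyruvate did not lean one way. Pfkfb3, a bifunctional enzyme that makes the activator of phosphofructokinase, stood at 48.9 and 47.1 CPM in WT and at 54.3 and 48.6 CPM in KO (log2 fold change 0.10 ± 0.11). Pfkfb4, its relative, stood at 11.9 and 9.28 CPM in WT and at 9.26 and 8.82 CPM in KO. Both KO libraries were lower, but KO replicate 1 and WT replicate 2 were almost equal, and the log2 fold change was -0.22 ± 0.17 (95% interval -0.65 to 0.20). Pdk1, the kinase that blocks pyruvate entry into mitochondria and a HIF target, stood at 58.8 and 62.6 CPM in WT and at 54.9 and 53.8 CPM in KO. The genotypes did not overlap, and Pdk1 had a log2 fold change of -0.16 ± 0.10 (95% interval -0.41 to 0.09). Slc16a3, the lactate exporter MCT4, stood at 76.2 and 66.8 CPM in WT and at 75.0 and 77.1 CPM in KO (0.09 ± 0.11).

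Hif1a (chromosome 12, 75002362 to 75048517, mm9), whose protein is the oxygen-regulated HIF-1 alpha, stood at 1854 and 1896 CPM in WT and at 1857 and 2080 CPM in KO. KO replicate 1 lay between the WT libraries and KO replicate 2 was the highest. Its log2 fold change was 0.07 ± 0.11 (95% interval -0.19 to 0.33), and transcript level does not measure the protein. Egln1 and Egln3 encode prolyl hydroxylases that mark HIF alpha for destruction and are themselves induced by HIF. Egln3 (chromosome 12, 55279968 to 55304847, mm9) stood at 128 and 98.1 CPM in WT and at 151 and 125 CPM in KO, so that WT replicate 1 was a little above KO replicate 2. Egln3 had the highest fitted value of the 33 members, a log2 fold change of 0.29 ± 0.17 (95% interval -0.13 to 0.70), and its ratio was 0.23 within replicate 1 and 0.35 within replicate 2. Leaving out WT replicate 2 gave 0.10, when Egln1 was higher at 0.35, and leaving out WT replicate 1 gave 0.49. Egln1 stood at 55.7 and 65.5 CPM in WT and at 60.7 and 80.9 CPM in KO (0.22 ± 0.17), with WT replicate 2 above KO replicate 1, and its fitted value was 0.00 without KO replicate 2.

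Of the 14 hypoxia response members, 13 had a fitted value above 0, and for Ankrd37 and Higd1a both KO libraries lay above both WT libraries (14.3%, near the 13.5% of all tested genes). Ankrd37, a HIF target of little known function (chromosome 8, 47082256 to 47085221, mm9), stood at 16.6 and 15.7 CPM in WT and at 17.8 and 21.2 CPM in KO. Its log2 fold change was 0.28 ± 0.13 (95% interval -0.05 to 0.60), and its unadjusted edgeR p of 0.0843 was the lowest of the members. Without KO replicate 2 its fitted value was 0.14. Higd1a, a mitochondrial inner membrane protein of the hypoxia response (chromosome 9, 121757678 to 121767118, mm9), stood at 20.6 and 20.7 CPM in WT and at 23.6 and 23.9 CPM in KO. The libraries of each genotype were almost equal, and Higd1a had a log2 fold change of 0.20 ± 0.10 (95% interval -0.05 to 0.45), 0.19 in replicate 1 and 0.21 in replicate 2.

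The mitophagy receptors Bnip3 and Bnip3l, paralogs that HIF induces, stood differently in the libraries. Bnip3 stood at 10.1 and 8.73 CPM in WT and at 7.43 and 13.1 CPM in KO, the lowest and the highest library both being KO. The ratio was -0.43 in replicate 1 and 0.59 in replicate 2. Bnip3l stood at 142 and 131 CPM in WT and at 147 and 135 CPM in KO, which gave a log2 fold change of 0.05 ± 0.10 (95% interval -0.20 to 0.29).

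Bhlhe40, a transcriptional repressor induced by hypoxia and by T cell activation (chromosome 6, 108610623 to 108616919, mm9), stood at 1154 and 1242 CPM in WT and at 1177 and 1697 CPM in KO. KO replicate 2 was far above the other 3 libraries and KO replicate 1 lay between the WT libraries. Bhlhe40 had a log2 fold change of 0.26 ± 0.19 (95% interval -0.20 to 0.73), from ratios of 0.03 within replicate 1 and 0.45 within replicate 2. Without KO replicate 2 its fitted value was -0.03. Mxi1, a Max partner that opposes Myc, stood at 365 and 290 CPM in WT and at 387 and 340 CPM in KO (0.15 ± 0.14). Ddit4, an inhibitor of mTOR complex signalling, stood at 263 and 243 CPM in WT and at 296 and 252 CPM in KO (0.11 ± 0.11). In both genes replicate 1 was the higher library of each genotype.

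Among hypoxia members of the endoplasmic reticulum and of chromatin, Ero1l, an oxidase of disulphide formation, stood at 246 and 249 CPM in WT and at 228 and 291 CPM in KO. The KO libraries lay on either side of the WT libraries (ratio -0.11 in replicate 1 and 0.22 in replicate 2). P4ha1, a collagen prolyl hydroxylase subunit, stood at 151 and 129 CPM in WT and at 146 and 157 CPM in KO (log2 fold change 0.11 ± 0.11). Kdm3a, a histone demethylase, stood at 196 and 166 CPM in WT and at 189 and 180 CPM in KO, with a log2 fold change of 0.02 ± 0.11 and the KO libraries between the WT libraries. Vegfa, the angiogenic growth factor gene, stood at 7.22 and 5.10 CPM in WT and at 6.22 and 4.81 CPM in KO. It was the only hypoxia member with a fitted value below 0 (-0.16 ± 0.25, 95% interval -0.79 to 0.48).

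The enzymes and the hypoxia members had similar medians between genotypes, 0.12 over 13 enzymes and 0.13 over 14 hypoxia members, on the scale of log2 fold change. Within replicate 1 the medians were 0.07 and 0.04, and within replicate 2 they were 0.16 and 0.23. The ratio of KO over WT was higher in replicate 2 than in replicate 1 for 12 of 13 enzymes, 12 of 14 hypoxia members and 27 of 33 members, beside 50.7% of all tested genes. Both replicates gave a ratio above 0 for 22 members and below 0 for 4. Bnip3, Hk2, Ero1l, P4ha1, Kdm3a and Slc16a3 had ratios of opposite sign in the replicates, and Gpi1 and Hif1a had a ratio of 0.00 in replicate 1.

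**Figure D3:**
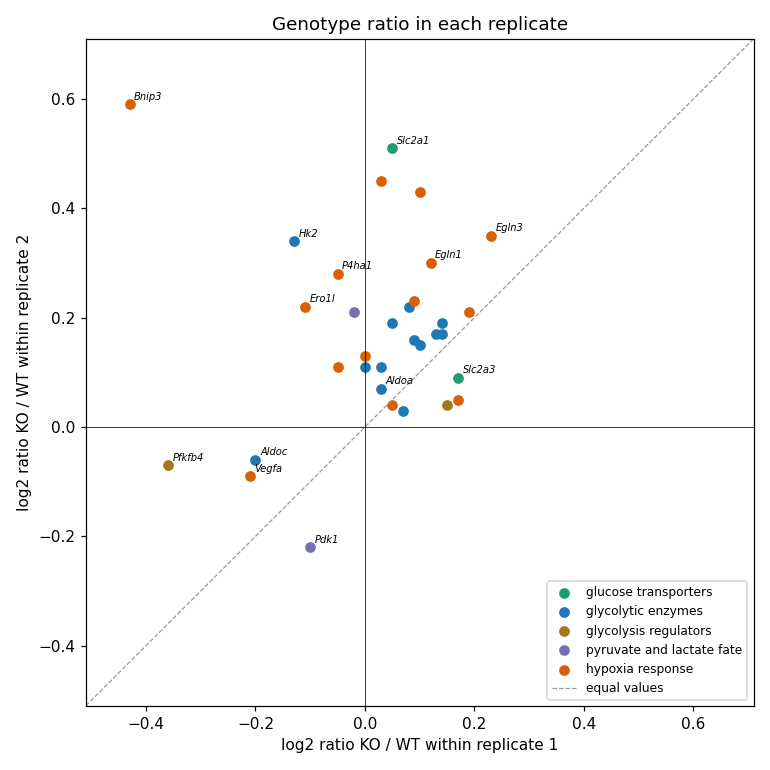
Log2 ratio of KO over WT within replicate 1 (horizontal) and within replicate 2 (vertical) for the 33 members, coloured by role; the dashed line marks equal ratios and crowded points carry no name. 27 of 33 points lie above the dashed line, with Bnip3 the farthest from it.

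KO replicate 2 was the highest library for 22 of 33 members (66.7%), 11 of 13 enzymes and 8 of 14 hypoxia members, beside 29.0% of all tested genes. The summed level of the 13 enzymes was 2504 and 2621 CPM in WT and at 2626 and 2898 CPM in KO. For the 14 hypoxia members the sums were 4610 (WT replicate 1), 4560 (WT replicate 2), 4693 (KO replicate 1) and 5399 CPM (KO replicate 2). Both sums were highest in KO replicate 2. Most of the hypoxia sum came from Hif1a and Bhlhe40, at 2080 and 1697 CPM in KO replicate 2, so its rise there does not describe the other members. Among the 14, the highest library was KO replicate 2 for 8, KO replicate 1 for 4 and WT replicate 1 for 2. Without KO replicate 2 the median was 0.03 for the enzymes and 0.06 for the hypoxia members, and 21 of 33 members were above 0, beside 48.6% of all tested genes. Hk1, Hk2, Gpi1, Aldoa, Eno1, Hif1a, Bnip3, Ero1l and Bhlhe40 then had fitted values below 0, from -0.33 for Bnip3 to -0.01 for Hif1a, and Vegfa had 0.02. In that fit KO is represented by replicate 1 alone, whose spread is assumed to be like that of WT. Leaving out WT replicate 1, WT replicate 2 or KO replicate 1 in turn gave medians of 0.10 to 0.17 for the enzymes and 0.07 to 0.18 for the hypoxia members.

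Transcripts of other cells and of cycling also varied between the libraries. The summed level of 14 epithelial markers in the table was 27.7 and 28.1 CPM in WT and at 29.2 and 45.9 CPM in KO. Both KO libraries lay above both WT libraries for 7 of the 10 tested markers (70%), beside 13.5% of all tested genes. Both lay below for 2, Epcam and Krt18 (20%), beside 13.4%. Krt8, Krt19, Krt20, Cdx1, Car1 and Tff3 were at 0 in at least 1 library. Krt8, a keratin gene named after its values were seen, stood at 0 and 0.126 CPM in WT and at 1.01 and 3.86 CPM in KO, while Epcam stood at 14.7, 14.5, 12.2 and 13.7 CPM. The 7 plasma cell markers summed to 550 and 674 CPM in WT and to 572 and 830 CPM in KO, with both replicate 2 libraries high. Prdm1 and Xbp1 together made up most of each sum, with Xbp1 at 217 and 201 CPM in WT and at 215 and 224 CPM in KO. Most of the rise in replicate 2 came from Igj, at 122 and 249 CPM in WT and at 131 and 343 CPM in KO. Prdm1, Xbp1 and Igj were named after their values were seen, and which cells their transcripts came from was not tested. The 30 proliferation genes summed to 1604 and 2014 CPM in WT and to 1772 and 2309 CPM in KO, and both replicate 2 libraries were high. Replicate 2 was above replicate 1 for 28 of these genes in WT (median log2 ratio 0.56) and for 30 in KO (0.57), beside 50.7% of all tested genes in either genotype. KO replicate 2 was the highest library for 27 (90%), beside 29.0% of all tested genes. Fitted values were above 0 for 27 of the 30 (90%, beside 52% of all tested genes), with a median of 0.17 and none called by edgeR or DESeq2. Among these 27 were Cdt1 and Tyms, each at 0.27, and Pcna at 0.20. The 7 stromal markers summed to 10.7 to 80.3 CPM, with both replicate 2 libraries high, and the 9 macrophage markers at 154 and 67.7 CPM and at 113 and 47.5 CPM. Other lists held 17.0 to 22.5 CPM (7 B cell markers) and 0.738 to 1.15 CPM (4 neutrophil markers), with S100a9 at 0 in at least 1 library. The 6 endothelial markers summed to 108 to 120 CPM, most of it Pecam1 at 105 to 113 CPM. All 6 were higher in replicate 2 than in replicate 1 of both genotypes. Their median log2 ratio of replicate 2 over replicate 1 was 1.02 in WT and 1.65 in KO. The part of these cells or of cycling in the values of the members was not tested.

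The replicates of each genotype were also set side by side for the enzymes and the hypoxia members, with no test between these groups. In WT, replicate 2 was above replicate 1 for 9 of 13 enzymes (median log2 ratio 0.06) and for 5 of 14 hypoxia members (median -0.12). In KO, replicate 2 was the higher for 12 of 13 enzymes (0.17) and for 8 of 14 hypoxia members (0.06), and over all tested genes the share was 50.7% in either genotype. Hk1 and Eno1 were higher in replicate 2 by 0.41 and 0.32 in WT and by 0.37 and 0.36 in KO. Gapdh had ratios of -0.59 and -0.54, Vegfa -0.50 and -0.37, Egln3 -0.39 and -0.27 and Mxi1 -0.33 and -0.19. For 22 of 33 members the mean size of the replicate differences was larger than the difference between genotypes, as for 72.7% of all tested genes.

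**Figure D4:**
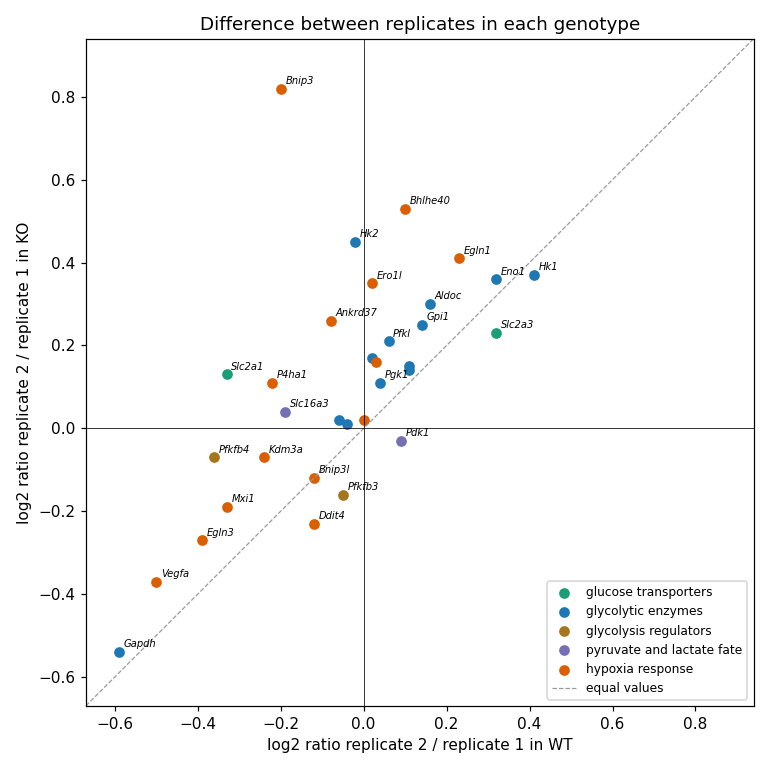
Log2 ratio of replicate 2 over replicate 1 in WT (horizontal) and in KO (vertical) for the 33 members, coloured by role; the dashed line marks equal ratios and crowded points carry no name. Gapdh, Vegfa, Egln3 and Mxi1 lie at the lower left, Hk1 and Eno1 at the upper right, and Bnip3 lies far above the line.

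Other genes of glycolysis and of the reverse pathway were taken from a separate list. Of 27 tested genes, 12 had a fitted value above 0 (44.4%, beside 52% of all tested genes) and 15 below, with a median of -0.02, and none was called by edgeR or DESeq2. Pkm2, the pyruvate kinase row (named, as Arnt below, after its values were seen), stood at 773 and 799 CPM in WT and at 855 and 880 CPM in KO, which gave a log2 fold change of 0.14 ± 0.09. Slc2a6, which encodes the transporter GLUT6, stood at 11.3 and 8.50 CPM in WT and at 5.54 and 5.54 CPM in KO. Both KO libraries were below both WT libraries, and Slc2a6 had a log2 fold change of -0.83 ± 0.19 (edgeR adjusted p = 1.00, DESeq2 adjusted p = 0.546). The row 9630033F20Rik, an older symbol of Tigar, which encodes a phosphatase that restrains glycolysis, had 0.40 ± 0.13, and Pfkm, the muscle phosphofructokinase, had -0.44 ± 0.20. Rpia of the pentose phosphate pathway had 0.22 ± 0.10, G6pdx 0.05 ± 0.10 and H6pd -0.10 ± 0.10, and 5 of the 8 tested genes of that pathway were above 0 (median 0.02). Of 30 tested genes of pyruvate entry and the tricarboxylic acid cycle, 18 were above 0 (median 0.02), and Suclg2, a succinyl-CoA ligase subunit, had -0.25 ± 0.12, while Sucla2, a subunit of the same enzyme family, had 0.16 ± 0.10 and Sdhb of succinate dehydrogenase 0.12 ± 0.11.

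Among 17 genes of HIF subunits and oxygen sensing, 10 had a fitted value above 0 (58.8%, beside 52% of all tested genes), with a median of 0.09. Called genes numbered 0 by edgeR (0% of all tested genes) and 1 by DESeq2 (0.267% of all genes with an adjusted p). The call of DESeq2 was Arnt2, a relative of Arnt, with 52.9 and 49.8 CPM in WT and at 81.8 and 83.8 CPM in KO (log2 fold change 0.69 ± 0.10, DESeq2 adjusted p = 2.01e-04, edgeR adjusted p = 0.666). Arnt itself, the partner of both HIF alpha and Ahr, stood at 91.6 and 63.2 CPM in WT and at 80.0 and 60.8 CPM in KO. Epas1, which encodes HIF-2 alpha, stood at 321 and 208 CPM in WT and at 385 and 346 CPM in KO. Both KO libraries were above both WT libraries, and the log2 fold change of Epas1 was 0.47 ± 0.21 (95% interval -0.06 to 0.99, edgeR adjusted p = 1.00). Epas1 had 0.19 without WT replicate 2 and 0.81 without WT replicate 1. Siah2, a ligase that removes prolyl hydroxylases, had 0.27 ± 0.17, with 72.1 CPM in KO replicate 2 and 49.7 to 53.4 CPM in the other libraries.

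In a further list of 49 hypoxia targets, 28 of 47 tested genes were above 0 (59.6%, beside 52% of all tested genes, median 0.03), and none was called by edgeR or DESeq2. Anxa2, an annexin, stood at 120 and 138 CPM in WT and at 149 and 182 CPM in KO (log2 fold change 0.36 ± 0.13, edgeR adjusted p = 1.00). Adora2b, an adenosine receptor gene, stood at 0.856 and 0.785 CPM in WT and at 1.69 and 2.57 CPM in KO, and Pgf, a relative of Vegfa, at 2.23 and 0.770 CPM in WT and at 0.489 and 0.397 CPM in KO. Among 10 tested genes of the Myc and Max network, 2 were above 0 (20%, beside 52% of all tested genes). They included Mxd1, a Max partner like Mxi1, at 599 and 575 CPM in WT and at 729 and 702 CPM in KO (0.29 ± 0.09, edgeR adjusted p = 1.00), and Mnt and Mga had -0.12 ± 0.11 and -0.10 ± 0.08.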

How the data were processed

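The 4 RNA-seq libraries were used; ATAC-seq of the same genotypes (4 samples) was left out, since it does not measure transcripts. The authors deposited raw counts per gene and an adjusted p-value per gene. TopHat2, DESeq and mm9 are named per the submitters' processing notes, and the counter, the annotation and the strand setting are not given there or in the labels. Reads were 50 bases, single-end, per the labels' protocols. Counts were tested with edgeR 4.0.16 (filterByExpr, TMM, quasi-likelihood F-test, genotype as the only term, Benjamini-Hochberg adjusted p under 0.05) in R 4.3.3. DESeq2 1.42.0, limma 3.58.1 (voom), other scalings, filters, a replicate block and each library left out were alternatives. The tests were run on simulated data first. All members are named; Ahr, Ahrr and Foxp3 were named as anchors, and from each other pathway list the genes past the threshold or, where fewer than 3 passed, the 3 with the lowest p, and any others are said to be chosen later. Members and lists were chosen with earlier results of these data known, so the shared direction is no independent evidence. Promoters are from RefSeq. 41 rows with a repeated symbol were kept. 1 further marker list is not reported here.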

Additional observations from a re-analysis of the deposited data

How the results depend on the processing

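Having 2 libraries per genotype limits these results. With 1 library left out, 0 to 2 genes were called, no member among them, and the enzyme median ran from 0.03 to 0.17, the lowest without KO replicate 2. Signs turned in some of these fits, with ranges of Slc2a3 -0.03 to 0.29, Hk1 -0.15 to 0.26, Hk2 -0.12 to 0.32, Gpi1 -0.08 to 0.17, Aldoa -0.03 to 0.12, Aldoc -0.29 to 0.01, Gapdh -0.18 to 0.44, Eno1 -0.03 to 0.33, Slc16a3 0.00 to 0.19, Hif1a -0.01 to 0.14, Bnip3 -0.33 to 0.48, Bnip3l -0.03 to 0.11, Ero1l -0.12 to 0.22, Vegfa -0.39 to 0.11, Mxi1 -0.01 to 0.32, Ddit4 -0.02 to 0.22, Kdm3a -0.09 to 0.15, Bhlhe40 -0.03 to 0.49, G6pdx -0.01 to 0.12 and Foxp3 -0.14 to 0.01. Genes called numbered 52 without the filter on low counts, 48 by DESeq2 and 458 with the replicate block, against 0 by edgeR without the block, and the cause was not tested. The replicate block, which leaves 1 residual degree of freedom, called 3.21% of all tested genes and 2 of 33 members by edgeR, Slc2a1 (log2 fold change 0.29, adjusted p = 0.0268) and Egln3 (0.29, adjusted p = 0.00615). With the block, 12 of 33 members had an unadjusted edgeR p under 0.05, of which Pdk1 was lower in KO and the others higher. Over all 14274 tested genes, 1033 higher and 851 lower in KO had such a p. Of the other genes named here the block called Slc2a6, Arnt2, Epas1, Adora2b, Anxa2, Mxd1, Ahrr and the epithelial markers Krt8, Krt19 and Car1. The labels give the replicate number no meaning, and both replicate 2 libraries had higher total counts than both replicate 1 libraries. Deviations of same-numbered libraries from the genotype means correlated across genes with r = 0.641 over 14274 genes and 0.632 over the 33 members, a hint from the data and not from the design. Under RLE or upper-quartile scaling, no filter, the stricter filter, DESeq2, limma-voom and the block, all 33 members kept their direction. At an adjusted p of 0.1, edgeR called 0 genes.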
